A study of Homo sapiens with 2 samples.

Results

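The genes of sterol and fatty acid synthesis, of the SREBP system that controls them and of sterol transfer and efflux were followed in H1299 cells with and without p53. The set comprised 31 named genes, chosen by symbol and function and sorted into 5 roles: mevalonate to squalene, post-squalene, fatty acid synthesis, SREBP control, and uptake or efflux. Of these, 29 were measured, out of 18417 genes on the arrays with a probe set of 1 gene symbol. FDFT1 and HSD17B7 were not analysed here, HSD17B7 because its probe set also carries the symbol of a pseudogene. H1299 is an established human lung carcinoma line that lacks p53, the stress-responsive transcription factor. The labels give 1 array of total RNA for cells with p53 and 1 for a negative control, and the groups share the cell line and all else the labels state. The sources used here do not give how or for how long p53 was introduced, or what the negative control was. With 1 array per group there is no replicate error and no p-value, and every difference describes these 2 arrays.

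Cells make cholesterol from acetyl-CoA through mevalonate and squalene, and the same acetyl-CoA feeds fatty acid synthesis. When sterol in the endoplasmic reticulum is low, SCAP carries the SREBP transcription factors to the Golgi, where they are cut and released to switch on nearly all enzymes of both routes. When sterol is high, the INSIG proteins hold SCAP back, and the oxysterol-sensing LXR receptors switch on efflux genes such as ABCA1. In liver cells p53 has been linked to ABCA1 and to lower SREBP-2 activity, which is given here as background only.

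The 2 arrays had median log2 intensities of 7.38 and 7.38, and 35.9% of all probe sets held exactly the same value on both. The p53 targets CDKN1A and MDM2 were 11.2-fold and 6.55-fold higher on the array labelled p53. The epithelial keratins KRT8 and KRT18 and the mesenchymal filament gene VIM were bright on both arrays, between 12.47 and 13.07, whereas EPCAM, CDH1 and KRT19 were below the median intensity and equal on both. Of the alveolar type II markers measured, SFTPB, SFTPC and NAPSA were below that median and equal on both arrays, and ABCA3 stood at 8.77 and 8.81. Macrophages, hepatocytes and adipocytes express many of the genes described here. Of 9 macrophage markers, 2 were above the median, CD68 (11.01 with p53, 11.40 without) and ITGAM (8.46 and 7.68), and the mean log2 level of the list was 6.44 with p53 against 6.40 without. The 6 hepatocyte markers averaged 6.17 and 6.13 and the 5 adipocyte markers 6.12 and 6.10, and none of these 20 markers differed by 2-fold.

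A phospholipid transfer gene and a cholesterol efflux gene had the widest differences, and most synthesis genes differed little. Of the 29 measured genes, 3 were at least 2-fold higher with p53: PLTP (17.4-fold), ABCA1 (3.98-fold) and the sterol C14 reductase gene TM7SF2 (3.86-fold). ELOVL6 (2.27-fold) and CYP51A1 (2.09-fold), an enzyme gene each of fatty acid elongation and of lanosterol demethylation, were the 2 that were at least 2-fold lower. The remaining 24 lay within 2-fold, most of them slightly lower with p53. The 2-fold rule is one of size and not a test, and in bulk RNA a lower level in every cell and fewer cells with the transcript cannot be told apart. Over all 18417 genes, 5.22% were at least 2-fold higher and 3.70% at least 2-fold lower. Among the 11103 genes whose mean of both arrays reached the median intensity of 7.38, as it did for 28 of the 29, these shares were 7.70% and 5.67%. The 10.3% higher and 6.9% lower among the 29 are near those backgrounds, so the counts say little about the set as a whole. By any amount, 20 of the 29 (69.0%) were lower with p53, against 50.7% of the genes at or above the median intensity. Part of this gap lies in ties, since 6.9% of the 29 and 15.1% of the brighter genes were equal on both arrays. Higher by any amount were 24.1% and 34.3%. The median difference of the 29 was -0.14 on the log2 scale, and that of the brighter genes was -0.01. With the trend of the differences on intensity removed, the median of the 29 was -0.11. Over the members whose mean reached the 75th percentile of intensity it was -0.20.

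**Figure D1:**
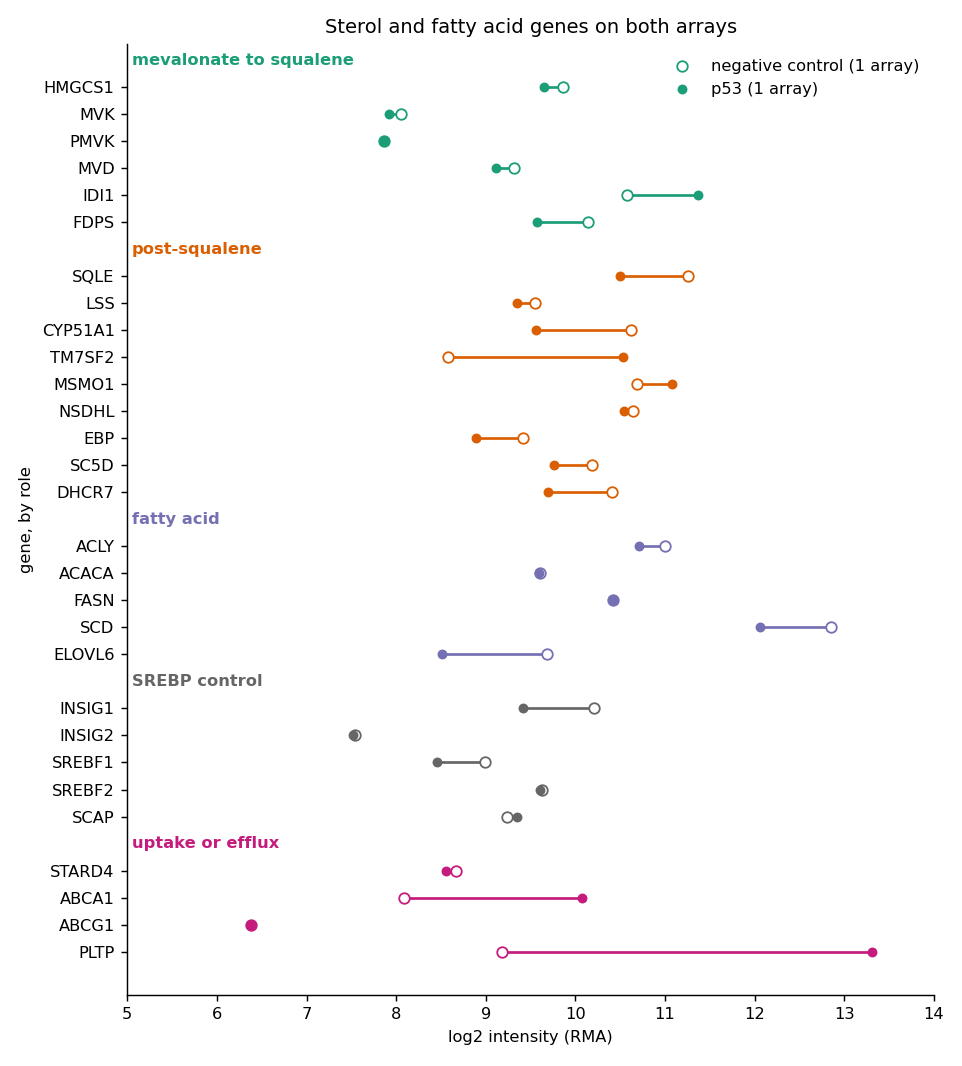
Log2 intensity (RMA) of the 29 measured genes, sorted by role, with an open circle for the negative control array, a filled circle for the p53 array and a line between them. Most filled circles sit to the left of the open ones or on them, while TM7SF2, ABCA1 and PLTP sit far to the right, PLTP moving from 9.18 to 13.31.

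The mevalonate enzymes, which build isoprenoid units and join them towards squalene, differed little. HMGCS1, which makes the HMG-CoA that enters the pathway, read at a log2 intensity of 9.65 with p53 against 9.86 without, a difference of -0.22. The mevalonate kinase gene MVK stood at 7.92 and 8.06. PMVK, the phosphomevalonate kinase, was listed at the same value, 7.86, on both arrays. The decarboxylase gene MVD stood at 9.12 and 9.31. Of these early steps HMGCS1 thus had the widest difference, and all were equal or slightly lower with p53. IDI1, the isopentenyl diphosphate isomerase that balances the pair of isoprenoid building blocks, was the exception and was 1.74-fold higher, at 11.37 with p53 against 10.57 without. The next enzyme, the farnesyl diphosphate synthase FDPS, went the other way and was 1.49-fold lower, at 9.57 and 10.14. FDPS has processed pseudogenes, and 2 further probe sets that it shares with FDPSP2 were not used. Over the 6 mevalonate genes the median difference was -0.17, with none past 2-fold.

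After squalene, 7 of 9 genes were lower with p53 and 2 were higher, with a median difference of -0.43, the lowest of the 5 roles. SQLE, the squalene epoxidase and a rate-limiting step, stood at 10.49 with p53 against 11.25 without and was 1.69-fold lower. LSS, which closes the ring to lanosterol, stood at 9.35 and 9.54. CYP51A1, the lanosterol demethylase, had the most negative difference of this role, at 9.56 with p53 against 10.62 without. A second probe set of CYP51A1 gave 9.42 and 10.45, so its difference was -1.06 by one probe set and -1.03 by the other. With the trend of the differences on intensity removed it was -0.97, just short of 2-fold. TM7SF2 acts on the product of CYP51A1, and its level was the opposite: 10.53 with p53 against 8.58 without, a difference of 1.95. These 2 genes of adjacent steps thus differed in sign, by -1.06 and 1.95. LBR, which shares the C14 reductase activity of TM7SF2, had a difference of -0.49, so the sign is not that of the whole step. Of all 18417 genes, 98.5% had a lower difference than TM7SF2.

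The later post-squalene steps were lower or near equal, but for 1. MSMO1, the C4 methyl sterol oxidase, stood at 11.07 with p53 against 10.68 without, a difference of 0.39. NSDHL, its partner in C4 demethylation, stood at 10.54 and 10.65. The isomerase gene EBP was at 8.89 and 9.42, a difference of -0.52, and the desaturase gene SC5D at 9.76 and 10.19, a difference of -0.43. DHCR7, which reduces 7-dehydrocholesterol to cholesterol, was 1.64-fold lower, at 9.69 and 10.41. The last 3 enzymes named were all lower with p53, none of them by 2-fold. Over the 15 sterol enzymes of both roles, 11 were lower, 3 were higher and 1 was equal, with a median of -0.20.

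The fatty acid genes of the set split between the core and the finishing enzymes. ACLY, which supplies cytosolic acetyl-CoA from citrate, stood at 10.71 with p53 against 11.00 without. The carboxylase gene ACACA (9.59 and 9.60) and the fatty acid synthase gene FASN (10.42 and 10.42) differed by -0.01 and 0.00. These are the enzymes that build palmitate, and the widest difference among them was the -0.29 of ACLY. SCD, the desaturase that makes oleate, was 1.73-fold lower, at 12.06 with p53 against 12.85 without. ELOVL6, which lengthens palmitate to stearate, was lower by more than any other of the 29 genes, at 8.51 and 9.69, a difference of -1.18. These 2 genes, whose enzymes lengthen and desaturate the product, were thus both lower, ELOVL6 past 2-fold and SCD not. Outside the set, the elongase genes ELOVL1 (0.50), ELOVL3 (2.95, from a dim control) and ELOVL4 (0.50) were higher. ELOVL2 (-0.55), ELOVL5 (-0.44) and ELOVL7 (-0.34) were lower. SCD5, a relative of SCD, had a difference of 2.32, so the sign is not that of all genes of these steps.

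The SREBP control genes held no member past 2-fold, and their median difference was -0.03. SREBF2, which encodes the sterol-directed SREBP-2, stood at 9.60 with p53 against 9.63 without. SCAP, the escort, stood at 9.35 and 9.23. INSIG2 was at 7.52 and 7.54, close to the median intensity. Of these 3 transcripts SCAP had the widest difference, 0.11. SREBF1, which encodes the SREBP-1 forms, was 1.46-fold lower, at 8.45 and 8.99. INSIG1, itself a well-known SREBP target, was 1.73-fold lower, at 9.42 and 10.21. Transcript levels do not give the cut, active forms of these proteins, which arrays cannot measure.

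Among the uptake and efflux genes the differences were the widest, from -0.11 to 4.12. PLTP encodes the phospholipid transfer protein, which moves phospholipid between lipoproteins. It stood at 13.31 with p53 against 9.18 without, and its difference of 4.12 was the 13th highest of 18417. ABCA1, the transporter that hands cholesterol and phospholipid to apolipoproteins, stood at 10.07 and 8.08, a difference of 1.99, the 258th highest. ABCG1, the transporter that passes sterol on to mature lipoprotein particles, was listed at 6.39 on both arrays, below the median intensity. STARD4, a sterol carrier between membranes, stood at 8.56 and 8.67. PLTP and ABCA1 were therefore high on the p53 array and the other 2 were not. The median of the 4 was 0.996, and it rests on their number, since it was 1.99 without the dim ABCG1.

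**Figure D2:**
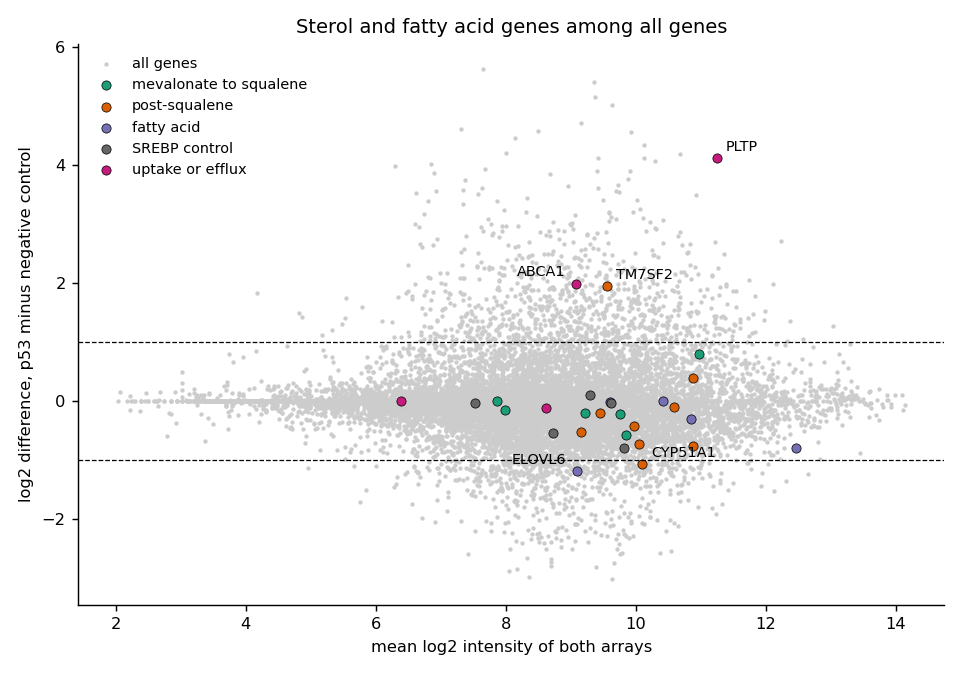
Log2 difference (p53 minus negative control) against mean log2 intensity of both arrays, with all 18417 genes in grey, the measured sterol and fatty acid genes coloured by role and dashed lines at 2-fold. PLTP, ABCA1 and TM7SF2 lie above the upper line, ELOVL6 and CYP51A1 just below the lower line, and the others between the lines at intensities mostly above 7.38.

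Values just inside and just outside the rules show how the counts depend on them. At 1.5-fold, IDI1 joined the 3 higher genes, and SQLE, DHCR7, SCD and INSIG1 joined CYP51A1 and ELOVL6 on the lower side, 4 against 6. FDPS, at 1.49-fold lower, lay just short. Among genes at or above the median intensity, 13.7% were at least 1.5-fold higher and 15.3% at least 1.5-fold lower. At 3-fold, PLTP, ABCA1 and TM7SF2 were still past the rule and no gene of the set was lower by that much, where the shares of the brighter genes were 3.59% and 1.51%.

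The DNA before the transcription starts of the genes past 2-fold is shown with that of INSIG1, a sterol-responsive gene that was lower, and SREBF2, whose sequence held a sterol regulatory element. Each window is the 250 bases before the most upstream start in RefSeq, build GRCh38.p14, 5′ to 3′ on the gene's strand; PLTP has a further start 1161 bases downstream, whose window is not shown. Capitals mark matches on either strand to the sterol regulatory element (the first run of capitals before SREBF2), the NF-Y box (CCAAT, seen as ATTGG where it lies on the other strand), the E-box (CACGTG) and the p53 half-site consensus.
PLTP, chr20:45912156-45912405, minus strand: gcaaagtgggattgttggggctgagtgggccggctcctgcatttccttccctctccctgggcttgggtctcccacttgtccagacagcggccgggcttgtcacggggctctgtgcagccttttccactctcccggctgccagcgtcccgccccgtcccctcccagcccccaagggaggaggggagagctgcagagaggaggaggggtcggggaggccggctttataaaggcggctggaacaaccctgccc
ABCA1, chr9:104928156-104928405, minus strand: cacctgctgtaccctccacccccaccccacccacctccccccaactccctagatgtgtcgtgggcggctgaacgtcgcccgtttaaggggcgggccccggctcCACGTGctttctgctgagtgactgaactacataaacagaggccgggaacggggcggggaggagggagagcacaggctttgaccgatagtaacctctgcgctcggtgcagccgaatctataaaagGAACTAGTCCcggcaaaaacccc
TM7SF2, chr11:65111622-65111871, plus strand: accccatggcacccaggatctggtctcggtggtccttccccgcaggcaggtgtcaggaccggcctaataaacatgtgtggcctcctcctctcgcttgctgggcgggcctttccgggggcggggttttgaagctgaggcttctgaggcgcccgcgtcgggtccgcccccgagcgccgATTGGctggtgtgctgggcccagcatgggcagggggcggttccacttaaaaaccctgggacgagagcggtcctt
CYP51A1, chr7:92134478-92134727, minus strand: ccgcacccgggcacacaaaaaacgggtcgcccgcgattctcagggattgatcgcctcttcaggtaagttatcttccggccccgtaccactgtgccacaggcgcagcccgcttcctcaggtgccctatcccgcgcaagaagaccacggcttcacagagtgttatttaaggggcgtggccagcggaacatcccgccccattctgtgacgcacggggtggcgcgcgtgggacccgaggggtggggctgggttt
ELOVL6, chr4:110198616-110198865, minus strand: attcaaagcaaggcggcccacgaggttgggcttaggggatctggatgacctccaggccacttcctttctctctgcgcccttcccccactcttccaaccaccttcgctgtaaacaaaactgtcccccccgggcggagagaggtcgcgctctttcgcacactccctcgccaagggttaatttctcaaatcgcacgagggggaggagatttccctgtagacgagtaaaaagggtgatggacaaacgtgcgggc
INSIG1, chr7:155297628-155297877, plus strand: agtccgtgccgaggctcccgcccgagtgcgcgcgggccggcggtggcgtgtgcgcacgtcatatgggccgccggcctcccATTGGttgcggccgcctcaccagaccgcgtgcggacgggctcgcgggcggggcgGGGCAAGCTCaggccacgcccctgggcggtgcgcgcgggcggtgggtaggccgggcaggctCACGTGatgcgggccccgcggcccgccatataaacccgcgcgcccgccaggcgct
SREBF2, chr22:41832855-41833104, plus strand: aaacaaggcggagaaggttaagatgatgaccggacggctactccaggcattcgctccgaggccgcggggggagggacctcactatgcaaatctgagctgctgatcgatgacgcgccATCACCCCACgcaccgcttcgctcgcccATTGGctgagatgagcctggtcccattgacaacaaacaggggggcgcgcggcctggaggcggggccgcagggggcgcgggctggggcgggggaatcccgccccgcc

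NF-Y boxes were common before these genes, and exact matches to the sterol regulatory element were few. NF-Y is a general factor that works beside SREBP at many sterol genes. Promoter sequence was found for 27 of the 31 genes, with 37 starts, some of which overlap. An NF-Y box lay within 250 bases of 23 of the 37 starts (62.2%), against 32.01% of all 35116 starts in the table, and at least 1 start had it in 19 of the 27 genes. It was present before TM7SF2 (74 bases before the start), INSIG1 (170) and SREBF2 (106), and no match was found in the windows of PLTP, ABCA1, CYP51A1 or ELOVL6. PMVK, INSIG2, SREBF1 and SCAP, which differed by less than 2-fold, had no match either. The full sterol regulatory element occurred in 0.0342% of all windows and in 1 of the 37, that of SREBF2, 134 bases before the start. It was searched as its exact sequence, so variant sites were not counted and the other windows may hold them.

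The E-box, which SREBP-1 and many other factors can bind, lay before SC5D, INSIG1, SCAP and ABCA1 (5 of 37 windows, 13.5%, against 6.34% of all windows). SC5D accounts for 2 of the 5 windows, so these are 4 of the 27 genes. In ABCA1 it began 147 bases before the start and in INSIG1 55 bases. The LXR direct repeat, searched as its exact consensus, had no match in the 37 windows and occurred in 0.0142% of all windows. So strict a search misses variant repeats, and it cannot show that ABCA1 or any other member lacks an LXR site. The p53 half-site consensus, added after the values were seen, matched in MVK, INSIG1 and ABCA1 (3 windows, 8.11%, against 5.57% of all windows). In ABCA1 the match GAACTAGTCC began 23 bases before the start, and in INSIG1 the match GGGCAAGCTC began 116 bases before it. ABCA1 was higher with p53, while INSIG1 (-0.79) and MVK (-0.14) were not. PLTP (4.12) and TM7SF2 (1.95), the other members at least 2-fold higher, had no match to the half-site. Such matches describe the letters of these windows and are not measured binding.

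**Figure D3:**
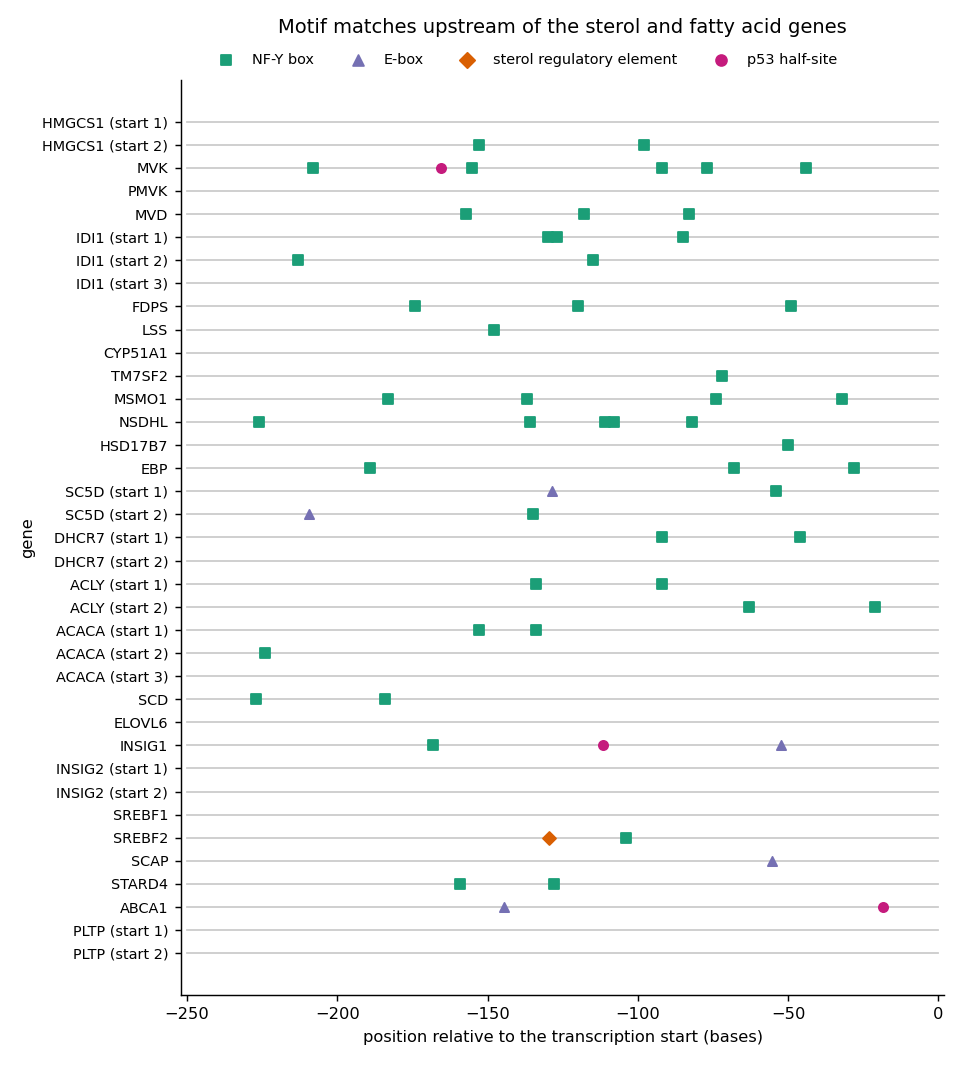
Matches to 4 motifs in the 250 bases before each of the 37 starts, by distance from the start in bases, with a row for each start and a symbol for each motif. NF-Y boxes (squares) fall before 19 of the 27 genes and the sterol regulatory element (diamond) before SREBF2 alone. The rows of PLTP, CYP51A1, ELOVL6, PMVK, INSIG2 and SREBF1 are empty. So are those of some starts of HMGCS1, IDI1, DHCR7 and ACACA.

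Other genes of the pathway were taken as 4 further lists. Of 13 measured sterol and isoprenoid enzymes outside the set, 2 were at least 2-fold lower and none higher, around a median difference of -0.26. They were TMEM97, a sterol-responsive membrane protein gene, at 9.14 with p53 against 10.50 without, and PDSS1, a subunit of the enzyme that makes the ubiquinone side chain, at 9.53 and 10.54, although the difference of PDSS1 was short of 2-fold with the trend on intensity removed (-0.91), with quantile normalization (-0.99) and with an offset before log2 (-0.98). Of 9 genes of SREBP processing and LXR signalling, MYLIP, an LXR target that encodes a ubiquitin ligase for lipoprotein receptors, was 2.01-fold higher, at 9.82 and 8.82, and the median was 0.06. With the offset MYLIP had a difference of 0.96, short of 2-fold. The SREBP proteases differed in sign, with MBTPS1 at 0.71 and MBTPS2 at -0.64. NR1H3, an LXR receptor gene, was listed at 7.19 on both arrays, below the median intensity. NR1H2, the other LXR receptor gene of the list, was not measured.

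Of 19 genes of sterol transport, storage and oxidation, 2 were at least 2-fold higher and none lower, around a median of 0.00. STARD5, a START-domain relative of STARD4, stood at 9.68 with p53 against 7.75 without. ABCG4, the closest relative of ABCG1, stood at 8.97 and 6.80, so its 4.51-fold difference rests on a dim control value. Of 28 further genes of fatty acid and lipid synthesis, 5 were past 2-fold upwards and 2 downwards, around a median of 0.00. MID1IP1, which promotes the assembly of acetyl-CoA carboxylase, was 8.46-fold higher, at 11.24 and 8.16. The elongase gene ELOVL3 was 7.71-fold higher, at 9.10 and 6.15, again from a dim control. The desaturase gene SCD5 (10.01 and 7.69), the desaturase family gene FADS3 (11.06 and 9.06) and the malic enzyme gene ME1 (9.94 and 8.85) were the others higher. HACD2, a dehydratase of fatty acid elongation (10.03 and 11.16), and ACSL4, which activates long polyunsaturated fatty acids (8.56 and 9.61), were lower. ACSL4 was short of 2-fold with the trend removed (-0.97) and with the offset (-0.99). Over these 4 lists, 8 of 69 genes (11.6%) were at least 2-fold higher and 4 (5.8%) lower, beside 5.22% and 3.70% of all 18417 genes. Of the 69, 57 reached the median intensity, and among the genes that did the shares were 7.70% and 5.67%.

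**Figure D4:**
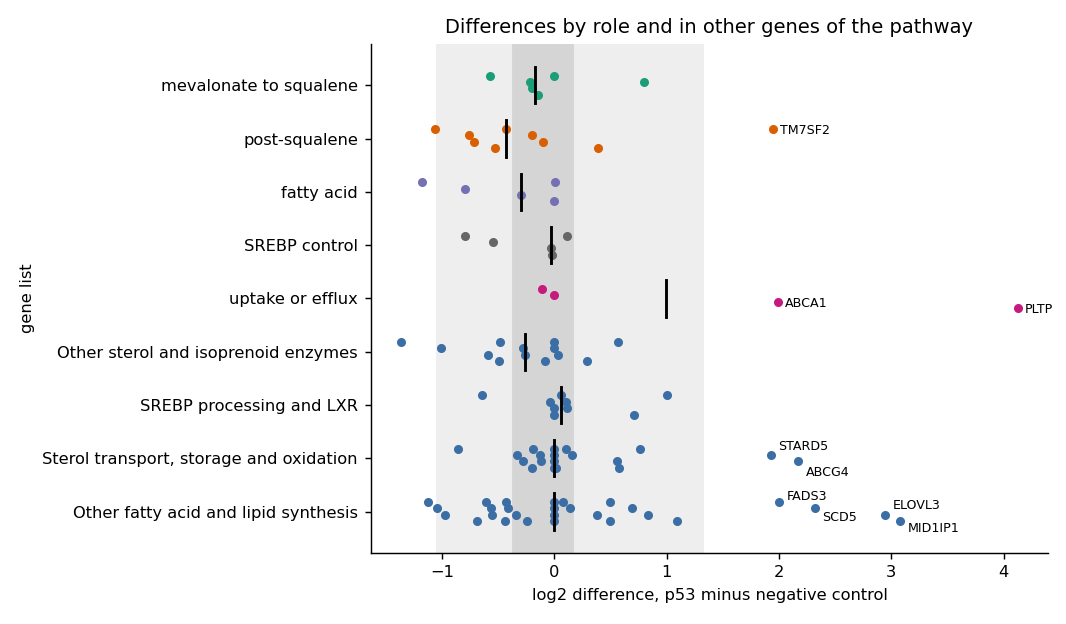
Log2 difference (p53 minus negative control) of each gene, with a row for each of the 5 roles and the 4 further lists, a black bar at each median, and grey bands for the central 50% and 90% of the genes at or above the median intensity. The medians of the 3 synthesis roles and of SREBP control lie left of 0, that of uptake or efflux lies at 0.996, and named points lie right of 1.9.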

How the data were processed

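Biotin-labelled total RNA, isolated with Trizol, was read on Affymetrix arrays by the standard protocol, per the labels' protocols. The authors deposited a log2 intensity for each probe set on each array, summarised with RMA, per the submitters' processing notes. The log2 scale was read from the values. The sources used here do not give the software version, the probe set definition or the genome build. The sorted values of both arrays differed by at most 0.192, so a change in total RNA per cell could not be seen. Because there is 1 array per group, the number of arrays limits the precision.

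Of 33297 probe sets, 19460 had 1 gene symbol in the platform annotation, 1754 had several and 12083 had none. Symbols were updated through gene identifiers to RefSeq, and probe sets with several or none were left out. For 769 genes with several probe sets, the brightest by the mean of both arrays was used. Differences are p53 minus control, and a gene was called at 2-fold or more. No filter was applied to the genes described. Named were all measured members, the members of the further lists past 2-fold, and CDKN1A and MDM2; others were named after their values were seen. The members, lists and rules were chosen with earlier results of these data known. Calculations were tested on simulated data. Python 3.11.15, numpy 2.4.6, pandas 2.3.3, statsmodels 0.14.6 and matplotlib 3.10.9 were used.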

Additional observations from a re-analysis of the deposited data

How the results depend on the processing

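No paired analysis was possible because there is 1 array per group, and for the same reason no array could be left out. The alternatives were fold rules of 1.5 and 3, centring, a lowess correction of the differences on intensity (span 0.3), quantile normalization, an offset of 32 before log2, the mean over probe sets, a floor at the 25th percentile (5.97), filters on the mean of both arrays at the median (7.38) or the 75th percentile (9.01), and leaving out genes equal on both arrays. Among the 29 members, no gene's difference changed by more than 0.124, the standard deviation between probe sets of 1 gene on the same arrays, which holds no variation between cultures. The call of CYP51A1 was lost with the trend removed (-0.97), and no other member's call at 2-fold changed under the scaling and filter alternatives that kept it. Most of these could not change a single member. The median over all genes was 0.0, so centring changed nothing, and the floor lay below every member. Filters and leaving out equal genes only drop genes, and the mean over probe sets could alter CYP51A1 alone. Only the trend correction, the offset and quantile normalization could move members in general. All the scaling and filter alternatives were also run on 71 further genes, those of the other lists, CDKN1A and MDM2, after the data were seen. Calls were lost for PDSS1 with the trend removed (-0.91), quantile normalization (-0.99) and the offset (-0.98), for ACSL4 with the trend removed (-0.97) and the offset (-0.99), and for MYLIP with the offset (0.96). The offset lowered the difference of ELOVL3 to 2.49 and that of ABCG4 to 1.897. The count of lower members, 2, became 6 at 1.5-fold, 0 at 3-fold and 1 with the trend removed. The median of the uptake or efflux genes, 0.996, became 1.99 with the filter at the median, 3.06 with the filter at the 75th percentile and 1.99 without equal genes. The other role medians moved by less than 0.124 under every alternative run on them. The share of all genes at least 2-fold higher, 5.22%, became 9.40% at 1.5-fold, 2.47% at 3-fold, 9.28% with the filter at the 75th percentile and 8.08% without equal genes. The share lower, 3.70%, became 10.1% at 1.5-fold, 0.956% at 3-fold, 5.67% with the filter at the median, 5.85% with that at the 75th percentile and 5.72% without equal genes.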

Other observations

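Differences of relatives within gene families are given as values only, for families picked after their values were seen, since probe sets of different genes cannot be compared in level. The desaturase gene SCD had a difference of -0.79 and SCD5 of 2.32. Among the elongases, ELOVL6 had -1.18, ELOVL2 -0.55, ELOVL5 -0.44 and ELOVL7 -0.34, while ELOVL1 and ELOVL4 had 0.50 each and ELOVL3 had 2.95, the last from a control value below the median intensity. The desaturase genes FADS1 and FADS2 had -0.98 and -0.68, and FADS3 had 2.001. Among transporters, ABCG1 was equal on both arrays and ABCG4 had 2.17, and among START-domain genes STARD4 had -0.11, STARD5 1.93 and STARD3 -0.33. LBR, the inner nuclear membrane protein that shares the C14 reductase activity of TM7SF2, had -0.49 against the 1.95 of TM7SF2. INSIG1 and INSIG2 had -0.79 and -0.02, and SREBF1 and SREBF2 had -0.54 and -0.03.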
